A study of Mus musculus with 6 samples.

Results

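The genes described here serve the major histocompatibility complex (MHC) and antigen presentation in MLE15 cells, a mouse lung epithelial line. They were chosen by name and not by their values: every gene whose symbol begins with H2-, the mouse MHC, and a list of 19 further genes of peptide generation, peptide loading and MHC transcription. Of the 19938 genes that the array annotation gives by a single symbol, 48 met this rule, 29 of them by an H2- symbol. MLE15 cells descend from lung tumors of transgenic mice in which the human SFTPC promoter drives the SV40 large T antigen. The shRNA lines carried lentiviral shRNAs against Nkx2-1, given as a mix in the pLKO.1 vector. By the labels the vector lines carried an empty vector, while the study describes a non-silencing control. All lines of both groups share the T antigen transgene, the lentiviral backbone and puromycin selection. The level of the T antigen in the lines was not examined here. The study describes 3 separately transduced stable lines of each kind, while the labels give a time of 48 h for every sample. Each line was measured on 1 array, and the values are log2 intensities from Robust Multi-Array Analysis (RMA).

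MHC class I molecules pair a heavy chain with beta-2-microglobulin and show peptides of cytosolic proteins to CD8+ T cells. The proteasome cuts these peptides, the TAP transporter carries them into the endoplasmic reticulum, and NLRC5 drives the transcription of the class I genes. MHC class II molecules carry peptides from endosomes to CD4+ T cells, with the invariant chain CD74 as escort, H2-DM as peptide editor and CIITA as master regulator. Alveolar type II cells of the lung, the cell type that MLE15 cells were derived to model, are known among epithelial cells for making class II molecules and CD74 without interferon.

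The label of the knockdown was checked first. Nkx2-1, the lung homeobox factor that the shRNAs target, had log2 values of 7.91, 7.98 and 7.83 in the shRNA lines and 8.61, 8.61 and 8.59 in the vector lines. It fell to 61.8% of the vector level (log2 difference -0.69, SE 0.076, limma adjusted p = 0.00155). Array medians lay between 5.10 and 5.14 in the shRNA lines and between 5.18 and 5.21 in the vector lines. Correlations across transcript clusters, the probe groups that stand for a transcript, were 0.991 to 0.994 within groups and 0.979 to 0.983 between groups. No array stood apart from its group. Within-group SDs of the 48 genes had a median of 0.11 and reached 0.38. A log2 value of 4.35 is used below as the background limit, since 95% of 1248 chemosensory receptor transcript clusters lay under it.

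Few of the antigen presentation genes changed. At an adjusted p under 0.05 in limma, with the adjustment over all 35557 transcript clusters, 5 of 48 (10.4%) changed. Cd74 and H2-M3 rose in the shRNA lines, and H2-K2, Psmb10 and Psme1 fell. Of all genes with 1 symbol 20.5% changed, 10.7% higher and 9.88% lower, and of all transcript clusters 16.8% changed. The share among the antigen presentation genes was thus not above that background. Without adjustment 15 of the 48 had a p under 0.05. The groups did not overlap for 18 of the 48 genes, 6 of them higher and 12 lower in the shRNA lines, while this held for 40.2% of all genes. The study's cut-offs, an adjusted p under 0.0005 and a log2 difference beyond 0.6, were applied here to the limma results. No antigen presentation gene passed them, against 374 (1.88%) of all genes. The study used a different test and reports more genes at these cut-offs, so this result does not stand for the study's own selection. The median log2 difference over the 48 genes was -0.06 (all genes -0.0070), with a range from -0.57 to 1.54, and the median size without sign was 0.12 (all genes 0.15). Subtracting each array's median raised every difference and moved the split of the calls to 6 higher and 2 lower, against 2 higher and 3 lower on the deposited scale.

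Of the 48 genes, 33 exceeded the background limit in the mean of at least 1 group. The other 15 were low in both groups: Cd1d1, Ciita, H2-Oa, the class II chain genes H2-Aa, H2-Ab1, H2-Ea and H2-Eb2, and 8 class I-like H2 genes. None of the 15 passed the test. Of the 33 genes above the limit 15.2% changed, against 29.2% of all genes above it. The H2 genes differ between mouse strains and resemble each other closely, the strain behind MLE15 cells is not given in the sources used here, and an array cannot assign the signal of near-identical copies to 1 of them.

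**Figure D1:**
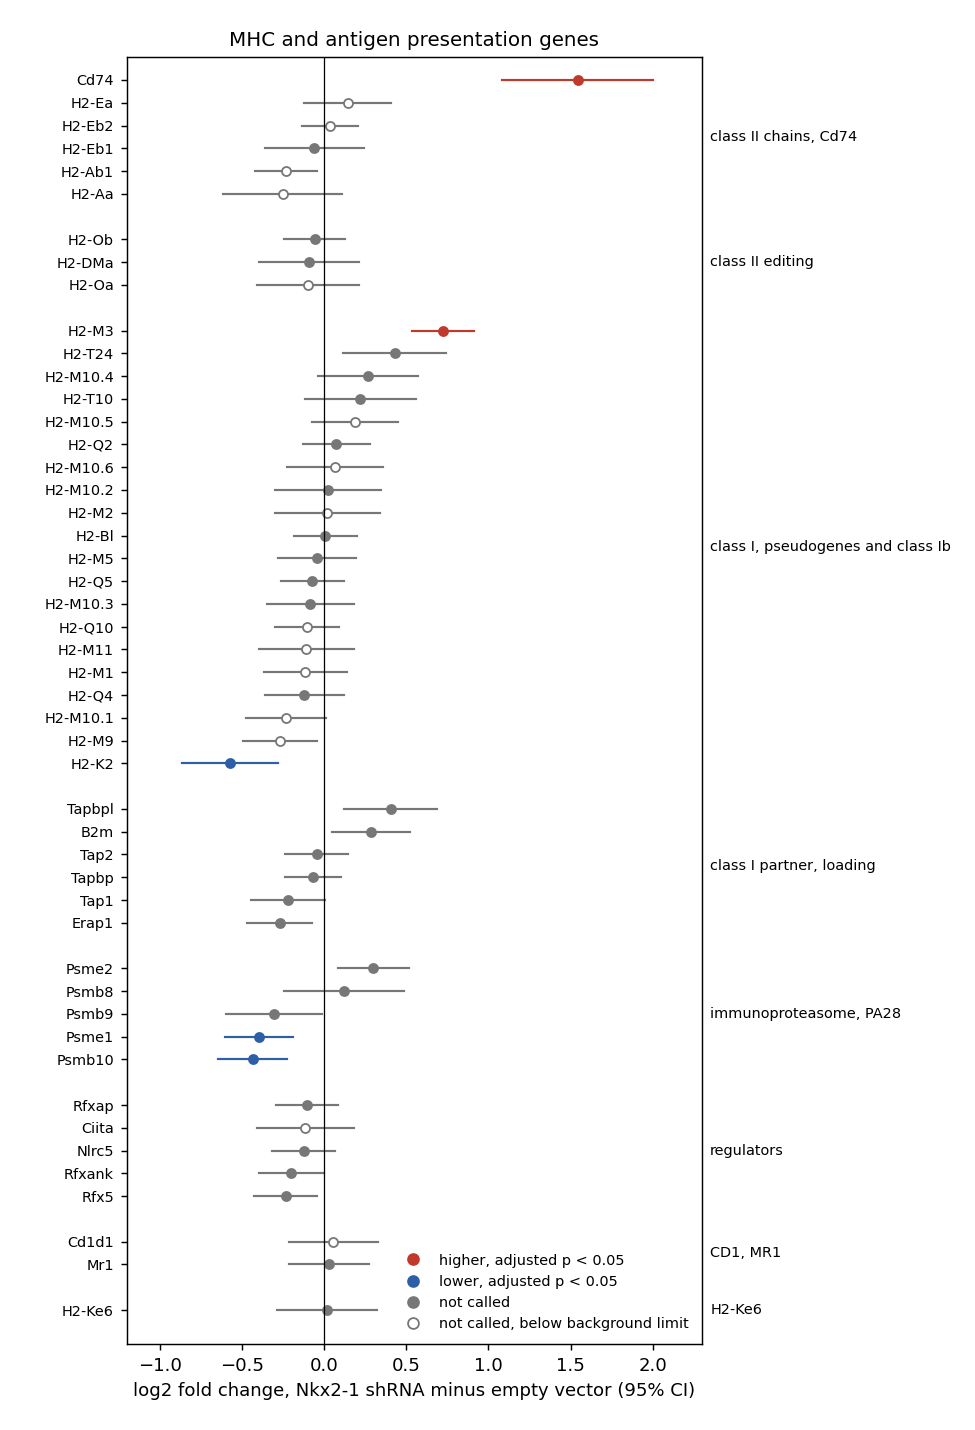
Log2 difference (shRNA lines minus vector lines) of each of the 48 genes, by role, with 95% confidence intervals from limma and open points below the background limit. Cd74 at 1.54 and H2-M3 at 0.72 stand on the higher side and H2-K2 at -0.57 on the lower side, while most intervals cross 0.

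In the class II pathway the invariant chain rose, and no class II chain gene passed the test. Cd74 had log2 values of 5.88, 5.58 and 5.62 in the shRNA lines and 3.72, 4.33 and 4.40 in the vector lines. All 3 shRNA lines were above all vector lines, and 2 of the 3 vector lines were below the background limit. The means were 5.69 ± 0.16 in the shRNA lines and 4.15 ± 0.38 in the vector lines (SD, n = 3 each). Cd74 rose in the shRNA lines (measured log2 difference 1.54, SE 0.19, 95% interval 1.08 to 2.00, limma adjusted p = 0.00268). With the vector arrays that were below the background limit set to it, Cd74 was at least 2.51-fold higher in the shRNA lines (log2 difference 1.33). Its measured difference was the largest among the 48 genes, and it passed with each line left out in turn (adjusted p 0.00283 to 0.0138). The limma fit pools variance across genes. Tested with unequal variances and without that pooling, the adjusted p of Cd74 was 0.0974.

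The 5 class II chain genes were mostly near background. H2-Eb1, a beta chain of the H2-E molecule, was the only one of them above the background limit. It had log2 values of 5.39, 5.26 and 5.59 in the shRNA lines and 5.35, 5.39 and 5.67 in the vector lines, which overlapped (log2 difference -0.06, 95% interval -0.36 to 0.24, limma adjusted p = 0.82). H2-Aa and H2-Ab1 encode the chains of the H2-A molecule. H2-Ab1 had values of 3.93, 4.06 and 3.96 in the shRNA lines and 4.20, 4.16 and 4.28 in the vector lines, all below the limit (log2 difference -0.23, limma adjusted p = 0.104). H2-Aa averaged 2.74 in the shRNA lines and 2.99 in the vector lines (log2 difference -0.25, 95% interval -0.61 to 0.11, limma adjusted p = 0.34). The 3 class II editing genes with transcript clusters of their own did not pass the test. H2-DMa, a chain of the peptide editor, differed by -0.09, and H2-Oa and H2-Ob, chains of its inhibitor H2-O, differed by -0.10 and -0.06. The partner chain of H2-DMa was measured only by a transcript cluster that carries the symbols H2-DMb1 and H2-DMb2 together and so fell outside the rule. It had values of 5.71, 5.74 and 5.53 in the shRNA lines and 4.94, 5.01 and 5.15 in the vector lines (log2 difference 0.63, SE 0.097, limma adjusted p = 0.00629). The groups did not overlap, and the signal cannot be divided between the H2-DMb genes. This transcript cluster was singled out after its values had been seen.

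**Figure D2:**
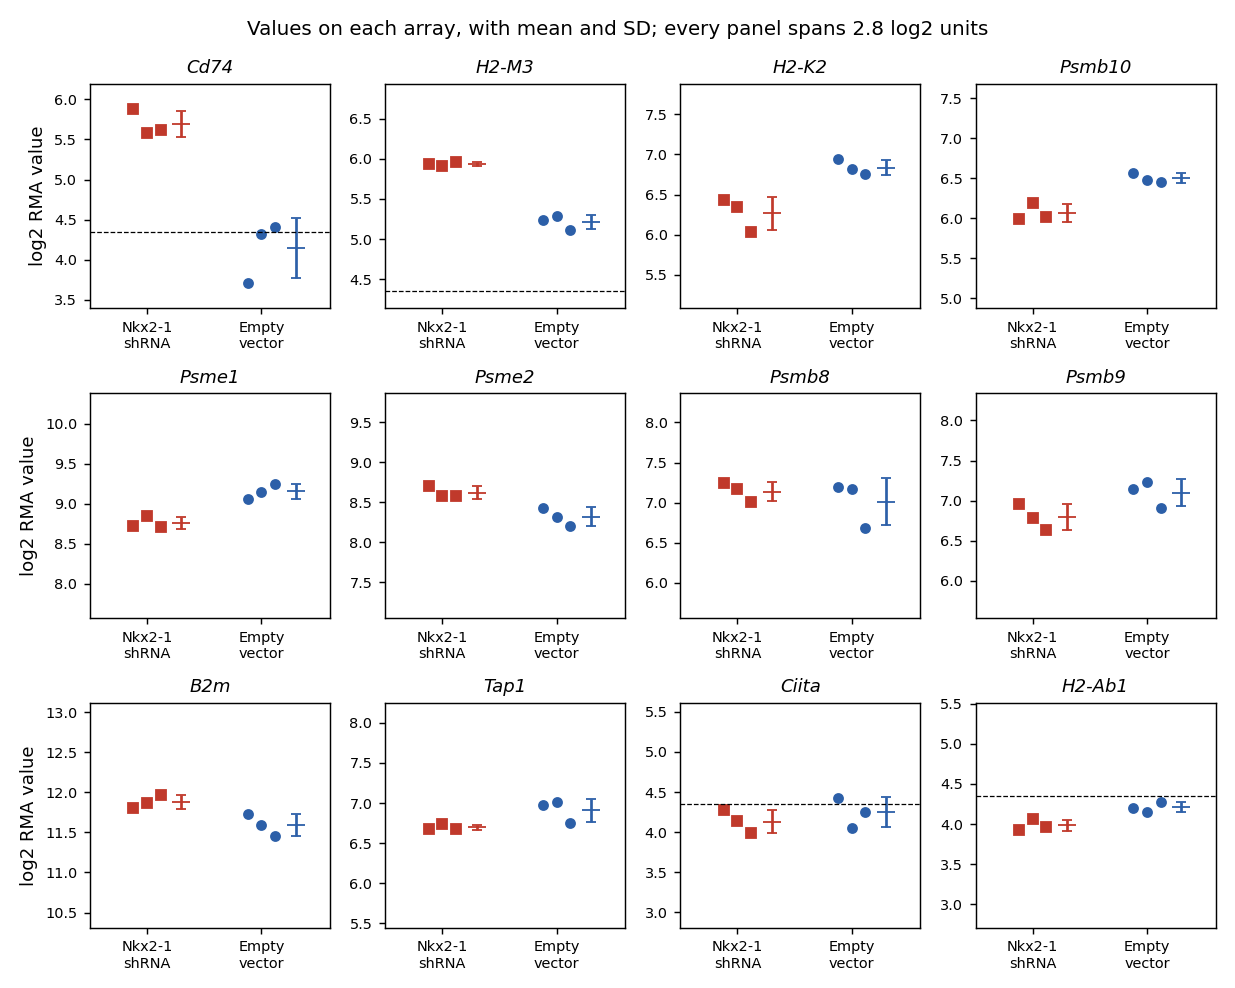
Log2 values on each array (points, with the group mean and SD beside them) for the 5 genes that changed and 7 others, shRNA lines to the left of vector lines, with the background limit of 4.35 as a dashed line. The Cd74 points at 5.58 to 5.88 lie above the vector points at 3.72 to 4.40, and the 3 Ciita points of each group overlap just around the limit.

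The regulators of class II genes were measured beside Cd74. Ciita, the co-activator on which class II transcription depends, had log2 values of 4.27, 4.14 and 3.98 in the shRNA lines and 4.43, 4.06 and 4.25 in the vector lines (log2 difference -0.11, 95% interval -0.41 to 0.18, limma adjusted p = 0.62). Its group means were below the background limit. Rfx5, Rfxank and Rfxap encode the RFX complex, which binds the X box of class I and class II promoters. Rfx5 had values of 6.50, 6.37 and 6.41 in the shRNA lines and 6.65, 6.73 and 6.59 in the vector lines (log2 difference -0.23, 95% interval -0.42 to -0.04, limma adjusted p = 0.104). The groups did not overlap, but the adjusted p missed the threshold. Rfxank differed by -0.20 and Rfxap by -0.10, and neither passed. Among the 5 regulators none passed the test, and all 5 differences were negative, with a median of -0.12.

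The X box and the Y box are the promoter elements through which CIITA and NLRC5 act, and they are shown here for the H2-E beta chain genes because both promoters hold them in the same arrangement. Promoter windows from RefSeq (build GRCm38.p6, 250 bases before to 50 after each start) were matched for 34 of the 48 genes. The letters AGNAACNG were searched for the X box core and ATTGG for the Y box, on both strands. The stretches are printed 5′ to 3′ on the plus strand with the X box core and then the Y box in capitals.
H2-Eb1, chr17:34305770-34305817: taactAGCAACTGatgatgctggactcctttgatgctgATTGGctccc
H2-Eb2, chr17:34325537-34325584: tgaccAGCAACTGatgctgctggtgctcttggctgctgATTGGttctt
The first bases of the X box core and of the Y box lay 33 bases apart in both promoters. H2-Eb1 was measured above the background limit and H2-Eb2 was not, at means of 4.00 in the shRNA lines and 3.96 in the vector lines, and neither passed the test. Matches to the X box core were found in 6 of the 34 genes (H2-Eb1, H2-Eb2, H2-M3, H2-Oa, Psmb8 and Rfx5), or 16.2% of their 37 windows, against 17.4% of all 32851 windows. Matches to the Y box letters were found in 26 of the 34 genes, or 73.0% of their windows, against 37.4% of all windows. The windows of the 34 genes are not independent. Those of the H2-M10 genes resemble each other, both H2-M9 windows overlap, and so do those of Tap1 and Psmb9. A match describes the letters only, and forms of the X box with other letters were not counted.

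In the class I-like family, H2-M3 rose and H2-K2 fell. H2-M3, which presents N-formylated peptides of bacteria and mitochondria, had log2 values of 5.94, 5.92 and 5.96 in the shRNA lines and 5.24, 5.29 and 5.12 in the vector lines. The shRNA lines lay close together and above every vector line. H2-M3 was 1.65-fold higher in the shRNA lines (log2 difference 0.72, SE 0.079, limma adjusted p = 0.00157). It passed with each line left out in turn (adjusted p 0.00542 to 0.0111). Tested with unequal variances, its adjusted p was 0.0591. Its promoter is printed because it is the class I-like gene that rose. The capitals mark letter matches, in order, to a Y box, a Y box on the minus strand, a Y box and the X box core. The X box match lies downstream of the start and of the Y boxes.
H2-M3, chr17:37269984-37270283, plus strand: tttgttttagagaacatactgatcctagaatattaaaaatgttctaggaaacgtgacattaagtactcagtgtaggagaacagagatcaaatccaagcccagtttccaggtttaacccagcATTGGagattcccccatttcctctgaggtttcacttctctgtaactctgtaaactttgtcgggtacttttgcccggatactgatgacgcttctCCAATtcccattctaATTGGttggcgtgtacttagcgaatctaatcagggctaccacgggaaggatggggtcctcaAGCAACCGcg

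H2-K2, annotated as a transcribed pseudogene of the class I heavy chain family, had log2 values of 6.43, 6.34 and 6.03 in the shRNA lines and 6.94, 6.81 and 6.76 in the vector lines. shRNA line 3 was the lowest, and the groups did not overlap. H2-K2 fell to 67.2% of the vector level (log2 difference -0.57, SE 0.12, 95% interval -0.86 to -0.28, limma adjusted p = 0.0207). The call was lost without shRNA line 2 (adjusted p = 0.0515), without vector line 1 (0.0655) and without vector line 2 (0.0558). The classical heavy chain genes H2-K1 and H2-D1 had no transcript cluster of their own. Of the transcript clusters annotated to both of them, one averaged 9.71 in the shRNA lines and 9.49 in the vector lines (log2 difference 0.22, 95% interval -0.03 to 0.47, limma adjusted p = 0.225). The other averaged 9.93 in the shRNA lines and 9.99 in the vector lines (log2 difference -0.06, 95% interval -0.23 to 0.11, limma adjusted p = 0.648).

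The other 18 genes of the class I-like group did not pass the test. Of all 20 genes, 12 exceeded the background limit, 10 differences were positive and 10 negative, and the median was -0.02. H2-Q4, a Qa-region class I gene, averaged 7.78 in the shRNA lines and 7.90 in the vector lines (log2 difference -0.12, limma adjusted p = 0.51). H2-T24, of the H2-T region, had values of 4.63, 4.92 and 4.50 in the shRNA lines and 4.11, 4.27 and 4.38 in the vector lines. The groups did not overlap and the vector values lay near or below the background limit (log2 difference 0.43, limma adjusted p = 0.0707). The H2-M10 genes, known from the vomeronasal organ, and H2-M1, H2-M2, H2-M9, H2-M11 and H2-Q10 had differences between -0.27 and 0.27. Mr1, which presents microbial vitamin B metabolites, differed by 0.03 (95% interval -0.21 to 0.27), and Cd1d1, which presents lipids, was below the limit in both groups. H2-Ke6 carries an H2- symbol but encodes a steroid dehydrogenase, and it differed by 0.02 (limma adjusted p = 0.944).

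The class I partner and the loading genes were all above the background limit, and none of the 6 passed the test. B2m, the shared light chain, had log2 values of 11.80, 11.86 and 11.97 in the shRNA lines and 11.73, 11.59 and 11.45 in the vector lines. Every shRNA line was above every vector line, yet the difference missed the threshold (log2 difference 0.29, 95% interval 0.05 to 0.52, limma adjusted p = 0.102). B2m passed after centring each array on its median (adjusted p = 0.047) and among transcript clusters above the median level (0.0492). Tap1 and Tap2 encode the subunits of the peptide transporter. Tap1 had values of 6.68, 6.73 and 6.68 in the shRNA lines and 6.98, 7.01 and 6.75 in the vector lines (log2 difference -0.22, 95% interval -0.44 to 0.01, limma adjusted p = 0.181). Tap2 averaged 6.91 in the shRNA lines and 6.95 in the vector lines (log2 difference -0.05, limma adjusted p = 0.775), and its sign turned after median centring (0.04). Tapbp, or tapasin, which holds class I molecules at the transporter, differed by -0.07 (95% interval -0.24 to 0.10). Tapbpl, the tapasin-related editor TAPBPR, had values of 6.38, 6.40 and 6.42 in the shRNA lines and 5.75, 6.06 and 6.18 in the vector lines (log2 difference 0.41, limma adjusted p = 0.0618). Erap1, the aminopeptidase that trims peptides in the endoplasmic reticulum, had values of 8.37, 8.26 and 8.40 in the shRNA lines and 8.70, 8.59 and 8.54 in the vector lines (log2 difference -0.27, limma adjusted p = 0.0737). For both of these genes the groups were apart.

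The letters GAAANNGAA, the core of the interferon-stimulated response element, were searched in the same windows. They were found in 3 of the 34 genes (B2m, Erap1 and Psme1), or 8.11% of the windows, against 8.56% of all windows. The kappa B site of class I promoters, GGGATTCCC, was found in none of the 34 and in 0.353% of all windows. The B2m window is shown because it holds the response element and a Y box, marked in that order in capitals.
B2m, chr2:122147437-122147736, plus strand: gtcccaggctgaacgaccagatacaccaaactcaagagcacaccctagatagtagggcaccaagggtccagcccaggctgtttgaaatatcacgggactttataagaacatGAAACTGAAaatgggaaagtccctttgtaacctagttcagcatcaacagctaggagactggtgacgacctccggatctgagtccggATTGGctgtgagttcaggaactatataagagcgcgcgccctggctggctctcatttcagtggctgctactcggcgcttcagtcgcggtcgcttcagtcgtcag

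Among the inducible proteasome genes, Psmb10 and Psme1 fell, and the other 3 genes did not pass the test. Psmb10, the catalytic subunit beta2i, had log2 values of 5.99, 6.19 and 6.02 in the shRNA lines and 6.57, 6.48 and 6.45 in the vector lines. It fell to 74.1% of the vector level (log2 difference -0.43, SE 0.088, limma adjusted p = 0.0181). The call was lost without shRNA line 1 (adjusted p = 0.0746), without shRNA line 3 (0.0655) and without vector line 1 (0.0576). Psmb8 and Psmb9, the catalytic subunits beta5i and beta1i, lie within the MHC beside the TAP genes. Psmb8 had values of 7.24, 7.17 and 7.00 in the shRNA lines and 7.19, 7.17 and 6.68 in the vector lines, which overlapped (log2 difference 0.12, 95% interval -0.24 to 0.49, limma adjusted p = 0.666). Psmb9 had values of 6.96, 6.78 and 6.64 in the shRNA lines and 7.15, 7.23 and 6.91 in the vector lines (log2 difference -0.30, 95% interval -0.60 to -0.01, limma adjusted p = 0.154). These groups overlapped too. The Tap1 and Psmb9 promoter windows lie on opposite strands and share 275 bases, and the differences of these neighbours were -0.22 and -0.30.

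The PA28 proteasome activator is built from the products of Psme1 (alpha) and Psme2 (beta). Psme1 had log2 values of 8.72, 8.85 and 8.71 in the shRNA lines and 9.07, 9.15 and 9.25 in the vector lines. It fell to 76.0% of the vector level (log2 difference -0.40, SE 0.086, limma adjusted p = 0.0226). The call was lost without shRNA line 1 (adjusted p = 0.0881), shRNA line 3 (0.0795), vector line 2 (0.0628) or vector line 3 (0.0557), and after median centring (0.0562). Psme2 had values of 8.71, 8.58 and 8.58 in the shRNA lines and 8.43, 8.32 and 8.21 in the vector lines. It lay above the vector lines in all 3 shRNA lines, without passing the test (log2 difference 0.30, 95% interval 0.08 to 0.52, limma adjusted p = 0.0691). Just after its start Psme1 carries the interferon-stimulated response element letters on the minus strand, in capitals in the stretch shown.
Psme1, chr14:55578494-55578522: gagctgtgctTTCGCTTTCccttcccgct

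Nlrc5, the class I counterpart of CIITA, gave different readings along the gene. Its brightest transcript cluster, the one used among the 48 genes, had log2 values of 7.88, 7.85 and 7.84 in the shRNA lines and 7.89, 7.97 and 8.09 in the vector lines (log2 difference -0.12, 95% interval -0.32 to 0.07, limma adjusted p = 0.382). Nlrc5 was the only one of the 48 genes with several transcript clusters, 19 in all. Of these, 16 differences were negative and 3 positive, with a median of -0.21, and 3 were lower at the adjusted threshold. The lowest had values of 5.49, 5.64 and 5.32 in the shRNA lines and 6.36, 6.29 and 6.02 in the vector lines (log2 difference -0.74, limma adjusted p = 0.00904). The groups did not overlap for 11 of the 19, all of them lower in the shRNA lines. Of all genes 40.2% had groups that did not overlap. Of all transcript clusters 16.8% passed the adjusted threshold, in either direction. The transcript clusters of 1 gene share the same RNA and are not replicates, and the mean over the 19 differed by -0.24 without passing (limma adjusted p = 0.0607).

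**Figure D3:**
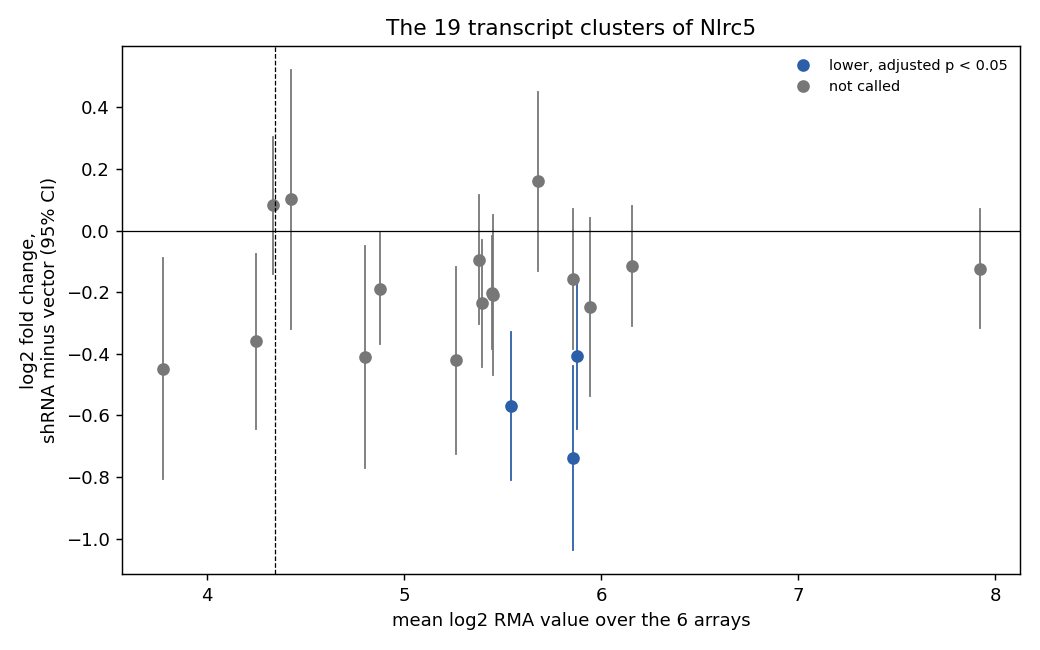
Log2 difference (shRNA lines minus vector lines) with 95% confidence interval of each of the 19 Nlrc5 transcript clusters, against its mean log2 value over the 6 arrays. Differences run from -0.74 to 0.16, 16 of them below 0, and 3 passed the adjusted threshold.

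The genes of the MHC were also set beside their neighbours in the genome. The chromosome 17 stretch between the first and the last of the 48 genes there held 34 of them, with a median log2 difference of -0.06. For the 21 of these above the background limit the median was -0.05. The stretch also held 99 other genes above the background limit, with a median of -0.02. Of these 99, 16 were higher and 8 lower in the shRNA lines, while of all genes above the limit 29.2% changed, 15.3% higher and 13.9% lower. Of the 20 nearest other genes above that limit around H2-M3, 10 on each side, 5 were higher and none lower, with a median of 0.16. The 20 such genes around Cd74 had a median of -0.04, with 3 higher and 3 lower. Those around H2-K2 had a median of -0.02, with 1 higher and 3 lower. Around Psmb10 the median was -0.13, with 1 higher and 3 lower, and around Psme1 it was -0.09, with 3 higher and 3 lower. These windows were added after the values of H2-M3 and Cd74 had been seen.

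Genes that serve the same pathways without belonging to the 48 were read from further lists. Each list is short. Its share of changed genes is taken over all its measured genes, also those below the limit. Beside it stands the 29.2% of all genes above the limit. Among other class I loading and endoplasmic reticulum factors, 3 of 8 fell and none rose (37.5%). Calr, the chaperone calreticulin of the peptide loading complex, had log2 values of 9.48, 9.55 and 9.44 in the shRNA lines and 10.41, 10.64 and 10.64 in the vector lines (log2 difference -1.07, limma adjusted p = 6.53e-04). The groups lay far apart compared with the spread within them. H13, the signal peptide peptidase (-0.50, limma adjusted p = 0.0146), and Pdia3, the loading complex oxidoreductase (-0.34, limma adjusted p = 0.0192), fell too. Their calls were lost with some lines left out: H13 without shRNA line 1 (adjusted p = 0.0594) or 3 (0.0527), and Pdia3 without any one shRNA line or without vector line 1 or 2 (0.0578 to 0.0797). Of 17 standard proteasome subunits, 2 fell and none rose (11.8%). Psma3 differed by -0.45 (limma adjusted p = 0.0114) and Psma5 by -0.64 (limma adjusted p = 0.0157), the call of Psma5 being lost without shRNA line 1 (0.0593) or 3 (0.0515). Psmb7, the constitutive counterpart of Psmb10, averaged 10.46 in both groups and did not pass (limma adjusted p = 0.985).

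Of 8 class II processing enzymes, of which 6 exceeded the limit, 2 fell and 1 rose (37.5%), all among those 6. Ifi30, or GILT, the lysosomal thiol reductase that opens disulfide bonds of antigens, had log2 values of 8.15, 8.47 and 8.16 in the shRNA lines and 9.18, 9.43 and 9.30 in the vector lines (log2 difference -1.04, SE 0.12, limma adjusted p = 0.00179). Lgmn, an asparaginyl endopeptidase of lysosomes, fell as well (log2 difference -0.60, limma adjusted p = 0.00638). Both calls held with each line left out. Cathepsin B, Ctsb, rose by 0.39 (limma adjusted p = 0.0242), and this call was lost without any one of the shRNA lines or without vector line 1 or 3 (0.0544 to 0.0829).

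**Figure D4:**
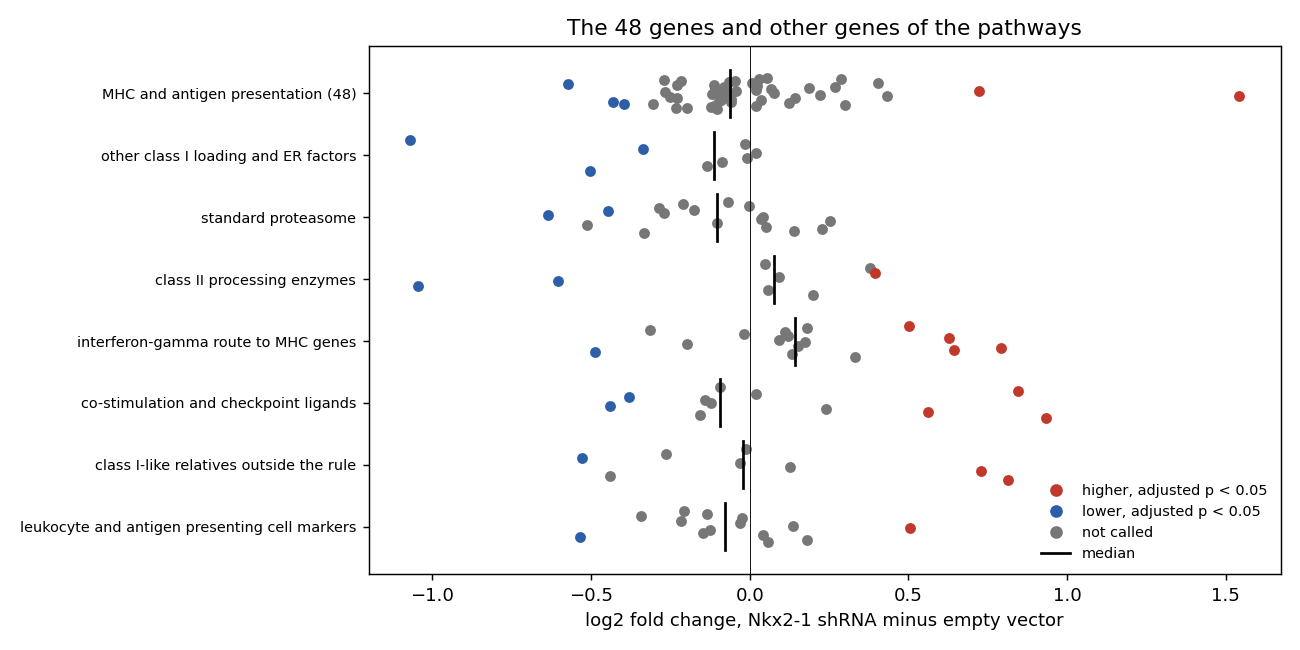
Log2 difference (shRNA lines minus vector lines) of each of the 48 genes (top row) and of the further lists, colored where the adjusted p in limma was under 0.05, with the median of each list as a line and the lung epithelial markers not drawn. Of the lists drawn, Calr at -1.07 and Ifi30 at -1.04 lie lowest, and outside the top row Tnfsf9 at 0.93 lies highest.

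On the route by which interferon-gamma reaches MHC genes, 4 of 16 measured genes rose and 1 fell, with a median of 0.14. This share of 31.2% was close to the 29.2% of all genes above the limit. NF-Y, the trimer that binds the Y box, is encoded by Nfya, Nfyb and Nfyc. Nfya had log2 values of 9.23, 9.16 and 9.33 in the shRNA lines and 8.53, 8.50 and 8.30 in the vector lines (log2 difference 0.79, limma adjusted p = 0.00236). Nfyb had values of 9.07, 9.00 and 9.00 in the shRNA lines and 8.40, 8.44 and 8.29 in the vector lines (log2 difference 0.64, limma adjusted p = 0.00241). Nfyc, named after its value had been seen, fell (log2 difference -0.49, limma adjusted p = 0.00912). Irf8, an interferon regulatory factor, rose by 0.63 (limma adjusted p = 0.0128), and stayed just under the threshold without shRNA line 1 (0.05 when rounded). Ifngr1, a chain of the interferon-gamma receptor, rose by 0.50 (limma adjusted p = 0.0487), a call that was lost without any one shRNA line or without vector line 2 or 3 (0.064 to 0.139). Irf1, which carries the interferon signal to class I and CIITA promoters, averaged 7.30 in the shRNA lines and 7.31 in the vector lines (limma adjusted p = 0.928).

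Of 11 co-stimulation and checkpoint ligands, of which 8 exceeded the limit, 3 rose and 2 fell (45.5%), all among those 8. Tnfsf9, the 4-1BB ligand, had log2 values of 5.67, 5.88 and 5.82 in the shRNA lines and 4.80, 4.80 and 4.96 in the vector lines (log2 difference 0.93, limma adjusted p = 0.00112). Cd80, a ligand of CD28, had values of 5.39, 5.44 and 4.97 in the shRNA lines and 4.37, 4.34 and 4.55 in the vector lines (log2 difference 0.85, limma adjusted p = 0.00808). Every shRNA line was above every vector line for both genes. Vtcn1, or B7-H4, rose by 0.56 (limma adjusted p = 0.031), with all vector lines below the background limit. With those lines set to the limit, the log2 difference of Vtcn1 was 0.23. The adhesion ligand Icam1 fell by 0.44 on the log2 scale (limma adjusted p = 0.028). The call of Vtcn1 was lost without shRNA line 3 or any one vector line (0.0503 to 0.0892), and that of Icam1 without any one shRNA line or vector line 2 (0.061 to 0.103). Cd274, which encodes PD-L1 and was named after its value had been seen, fell by 0.38 (limma adjusted p = 0.0301), and its call was lost without shRNA line 1 or 2 or any one vector line (0.0681 to 0.109). Of 8 measured class I-like relatives outside the MHC, of which 7 exceeded the limit, 2 rose and 1 fell (37.5%), all among those 7. H60b, an NKG2D ligand, had values of 7.79, 7.89 and 7.98 in the shRNA lines and 7.18, 7.13 and 6.90 in the vector lines (log2 difference 0.82, limma adjusted p = 0.00278). Mill2 rose by 0.73 (limma adjusted p = 0.0139; 0.0558 without shRNA line 1). Procr, the endothelial protein C receptor, fell by 0.53 (limma adjusted p = 0.0174), and its call was lost without shRNA line 1 (0.0668) or 3 (0.062) or vector line 2 (0.0566).

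Markers of leukocytes and professional antigen presenting cells, cells that also make CD74, were set beside these results. Of 14 measured markers, 9 were below the background limit in both groups, among them Ptprc, the pan-leukocyte marker CD45, with means of 3.26 in the shRNA lines and 3.47 in the vector lines. Itgam, Itgax, Adgre1, Cd79a and Ms4a1, which define myeloid, dendritic and B cells, were below it too. Cd3e, Cd14, Cd68, Fcer1g and Tyrobp exceeded it in at least 1 group. The summed log2 level of the 14 markers was 56.4 to 57.8 in the shRNA lines and 57.0 to 58.3 in the vector lines. Csf1r rose (log2 difference 0.51, limma adjusted p = 0.00905), with means of 4.26 in the shRNA lines and 3.75 in the vector lines, both below the limit. Fcer1g, below the limit in all shRNA lines and in 2 of the 3 vector lines, fell (log2 difference -0.54, limma adjusted p = 0.0146; 0.0568 without shRNA line 1 and 0.0534 without line 3). With values below the limit set to the limit, the log2 difference of Fcer1g was -0.08. Of 8 lung epithelial markers, all above the limit in at least 1 group, 3 fell and 1 rose (50%, against 29.2%), Nkx2-1 itself being one of those that fell. Sftpc, the surfactant gene of alveolar type II cells, had log2 values of 4.10, 4.29 and 3.85 in the shRNA lines and 7.22, 7.92 and 8.05 in the vector lines (measured log2 difference -3.65, limma adjusted p = 1.95e-04). All 3 shRNA lines were below the background limit, and against that limit Sftpc was at least 10.4-fold lower in the shRNA lines. Foxa2, a lung and foregut factor, fell by 0.44 (limma adjusted p = 0.0375), a call that was lost with any line but vector line 1 left out (0.0938 to 0.11), and the keratin Krt18 rose by 0.44 (limma adjusted p = 0.00825). Fewer cells of a kind and less RNA per cell cannot be told apart in these bulk samples.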

How the data were processed

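RNA from 6 MLE15 lines, 3 with Nkx2-1 shRNAs and 3 with the empty vector, was read on Mouse Gene 1.0 ST arrays (Affymetrix). Expression Console 1.1 and RMA gave the summary by the authors, and the deposited values are log2 intensities, used here without further change; 0 columns were left out. RMA includes quantile normalization, which can remove a shift shared by all genes. The comparison used limma 3.58.1 under R 4.3.3 (lmFit, eBayes, no block), Benjamini-Hochberg adjustment over all 35557 transcript clusters and a call at an adjusted p under 0.05. Intervals are at 95%. Genes were taken from transcript clusters with 1 symbol, the highest mean deciding among several. An exact permutation test over 3 lines against 3 cannot go below p = 0.1 and was not used. P-values measure the spread between lines, whose independence rests on the study's description. The small number of arrays limits the precision. The limma script was tested on simulated data.

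The 48 genes and the further lists were chosen with earlier results of these data known. Genes were named by rule: every one of the 48 that changed, H2-K1, H2-D1, H2-Aa, H2-Ab1, B2m, Tap1, Tap2, Psmb8, Psmb9, Nlrc5, Ciita, up to 4 changed genes of each further list, and Nkx2-1. Other genes were named after their values had been seen. The alternatives were other tests, priors, weights, normalizations and filters, the mean over the transcript clusters of a gene, a replicate block, each line left out and the 90th percentile for background. Gene annotation is that of the array platform, with names checked against RefSeq, and promoters are RefSeq GRCm38.p6.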

Additional observations from a re-analysis of the deposited data

How the results depend on the processing

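Across the alternatives none of the called genes that are named changed direction; single Nlrc5 transcript clusters were not followed. The 5 calls among the 48 genes (2 higher, 3 lower) became 8 (6 higher, 2 lower) after centring each array on its median, 8 (4 higher, 4 lower) of the 24 genes above the median level, where Cd74 was not tested, 9 (5 higher, 4 lower) of the 33 above background, and 9 (5 higher, 4 lower) of 48 when transcript clusters with 1 gene symbol were tested. The last 3 settings test fewer transcript clusters. The first raised every difference, since array medians were lower in the shRNA lines. Whether this alone moved the calls was not tested. With the t-test for unequal variances 0 of the 48 were called, none higher and none lower, although 11 had an unadjusted p under 0.05 (limma 15, the methods' t-test 14). The same test called 9 genes of the further lists (3 higher, 6 lower), against 27 (12 higher, 15 lower) with limma, and gave Nkx2-1 an adjusted p of 0.055 at a log2 difference of -0.69. The methods' t-test called 4 of the 48, losing H2-K2 (adjusted p = 0.0793), and 18 genes of the further lists (9 higher, 9 lower). With each line left out in turn, the calls among the 48 ran from 3 to 6 (2 to 4 higher, 1 to 2 lower), and those of the further lists from 16 to 25 (7 to 14 lower). Cd74 and H2-M3 were called in each of these fits. The 6 calls without vector line 3 added H2-M10.4 and Tapbpl. Over all transcript clusters, lines with the same number deviated from their group means together with correlations of 0.06, 0.14 and -0.03. These values are low for the array as a whole. Whether lines of the same number are linked in part of the genes was not tested. With the replicate block 4 of the 48 were called, 2 higher and 2 lower, Psme1 being lost (adjusted p = 0.0533), and 22 genes of the further lists. Values near the background limit, as for most class II genes, limit what these arrays can show.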

Other observations

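Transcript clusters that carry an H2- symbol together with another symbol belong to no single gene and stand outside the comparisons, apart from those given with H2-K2 and H2-DMa. There were 8 of them, with log2 differences from -0.06 to 0.63, and 1 was called. The cluster of H2-T-ps and H2-T23, which encodes Qa-1, averaged 6.30 in the shRNA lines and 6.10 in the vector lines (log2 difference 0.20). The cluster of H2-T9, H2-T10 and H2-T22 averaged 6.65 in the shRNA lines and 6.56 in the vector lines (log2 difference 0.09). That of H2-Q6 and H2-Q8 averaged 5.83 in the shRNA lines and 5.86 in the vector lines (log2 difference -0.04).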
